A study of Mus musculus with 2 samples.

Results

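Granzymes, the proteins stored with them in cytotoxic granules, and the killer lectin receptors were examined in splenic CD4+ alpha beta T cells of LatY136F mice against those of wildtype mice. The set was fixed by gene symbol as Gzma, Gzmb, Gzmc, Gzmk, Prf1, Srgn, Nkg7, Klrd1, Klrc1 and Klrk1, and 6 of these 10 genes had a probe with a single gene symbol, out of 4331 such genes on the array. Gzmb, Gzmc, Srgn, Klrd1, Klrc1 and Klrk1 were measured with 1 probe each. Gzma, Gzmk, Prf1 and Nkg7 had no such probe and were not analysed here.

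LatY136F is a germline substitution of a tyrosine by phenylalanine in Lat, a scaffold protein below the T cell receptor, at the site that binds phospholipase C gamma, and mice carrying it are known for an expanding population of Th2-polarised CD4+ T cells. In both groups, LatY136F and wildtype, CD4+ cells were taken from spleen with magnetic beads against CD4 and a cell sorter, and total RNA was compared directly on 2 two-channel arrays with the dyes reversed. The sources used here do not give age, sex, strain, the number of mice or whether the arrays shared RNA extracts. The 2 arrays therefore stand for 1 comparison of the genotypes, and no gene has a p-value.

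The deposited table gives 1 log ratio per probe and array, with no channel signal, so no level in either group is known and levels cannot be compared between genes. Ratios were read as log10 and as channel 2 over channel 1, the sign of array 2 was reversed, and the median of each array was set to 0. Every value below is a log2 ratio of LatY136F over wildtype under that reading, which is likely but not stated by the sources used here, and the opposite reading would exchange higher and lower throughout. The deposited columns, before reversal, had a Pearson correlation of -0.21 over 8014 probes. Means carry ± 0.5 times the gap between the arrays, which may hold no more than technical error. A gene is called higher or lower where both arrays put it 2-fold or more apart in 1 direction. Where a gene has a pair of values, array 1 comes before array 2. Wherever a gene differs, a changed number of cells that express it and a changed amount of RNA per cell cannot be told apart.

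Granzymes are serine proteases that cytotoxic lymphocytes store in secretory lysosomes bound to serglycin, the proteoglycan core protein encoded by Srgn, and deliver into target cells through pores of perforin. Granzyme B cleaves caspases and other substrates after aspartate. Killer lectin receptors are paired activating and inhibitory receptors of natural killer cells and some T cells: CD94 (Klrd1) forms a dimer with NKG2A (Klrc1) that recognises the class Ib molecule Qa-1 and inhibits the cell, while NKG2D (Klrk1) recognises stress-induced ligands and signals through the adaptors DAP10 and DAP12.

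The promoters of the 3 granule genes are shown because these are the members that lay on the same side on both arrays with higher ratios. Each window runs from 250 bases before to 50 bases after the RefSeq start (GRCm38.p6), 5′ to 3′ on the gene's strand. Capitals mark letters matching, on either strand, TGANTCA (the AP-1 site), TGACGT (the core of the cAMP response element), TGTGGT (a Runx site), CCGGAAG (an Ets site), AGATAA (a site of Gata factors) or TTCNNNGAA (a STAT5 site), searched as plain letters. The Gzmb window is chr14:56262285-56262584, the Gzmc window chr14:56234608-56234907 and the Srgn window chr10:62527396-62527695, all on the minus strand, and for Srgn the table holds another start that is not shown.
Gzmb: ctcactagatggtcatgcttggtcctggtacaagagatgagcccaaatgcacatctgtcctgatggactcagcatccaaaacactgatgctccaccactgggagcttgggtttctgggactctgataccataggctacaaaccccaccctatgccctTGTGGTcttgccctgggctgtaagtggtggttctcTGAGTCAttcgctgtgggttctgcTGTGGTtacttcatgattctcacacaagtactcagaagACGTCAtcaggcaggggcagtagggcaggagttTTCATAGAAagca
Gzmc: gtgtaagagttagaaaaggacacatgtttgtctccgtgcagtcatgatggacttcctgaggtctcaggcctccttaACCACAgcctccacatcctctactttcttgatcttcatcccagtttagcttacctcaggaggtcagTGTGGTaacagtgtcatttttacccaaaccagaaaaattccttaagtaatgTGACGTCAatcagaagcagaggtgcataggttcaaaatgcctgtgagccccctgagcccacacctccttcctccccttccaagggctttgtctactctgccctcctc
Srgn: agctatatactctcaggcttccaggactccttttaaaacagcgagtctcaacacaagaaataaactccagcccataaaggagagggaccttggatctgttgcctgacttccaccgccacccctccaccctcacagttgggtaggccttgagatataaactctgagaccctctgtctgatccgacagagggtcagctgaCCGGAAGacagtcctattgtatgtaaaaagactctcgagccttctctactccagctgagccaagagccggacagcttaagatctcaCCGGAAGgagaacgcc

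In Gzmb the AP-1 letters TGAGTCA began 58 bases before the start and Runx letters began 93 and 34 bases before it, with a cAMP response element core and a STAT5 match downstream of the start. Gzmc held the full palindrome TGACGTCA, which is counted as 2 overlapping cAMP response element matches, and 2 Runx matches, but no AP-1 match. The Srgn window shown held 2 Ets matches and none of the other motifs. The window of the other Srgn start held a cAMP response element core and a Runx match, beginning 72 and 202 bases before that start. Of all 32851 promoter windows of this length, 7.81% held the AP-1 letters, 7.51% the cAMP response element core, 16.8% the Runx letters, 8.86% the Ets letters, 11.2% the letters of Gata factors and 8.30% the STAT5 letters. Aligned end to end, the Gzmc window was 49.2% identical to that of Gzmb and 53.1% to that of Gzmn. The identity was 83.4% with Gzmd, 83.8% with Gzme, 74.6% with Gzmf and 76.9% with Gzmg. These matches describe the letters only and say nothing of binding in these cells. RefSeq windows were found for 9 of the 10 genes of the set, and Klrd1 had no entry.

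Gzmb stood far above every other measured gene of the set, Srgn was moderately higher, and Klrd1 was lower. Of the 6 measured genes, 2 were called higher, where 4.20% of all 4331 genes were, and 1 was called lower, where 0.970% of all genes were. The median log2 ratio of the 6 was 0.26, against 0.00039 over all genes, while array 1 by itself gave 1.01 and array 2 gave 0.59. On 4 of the 6 the arrays had the same sign, as on 55.8% of all genes. With 6 genes these shares describe the set and cannot be read as a test of it.

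**Figure D1:**
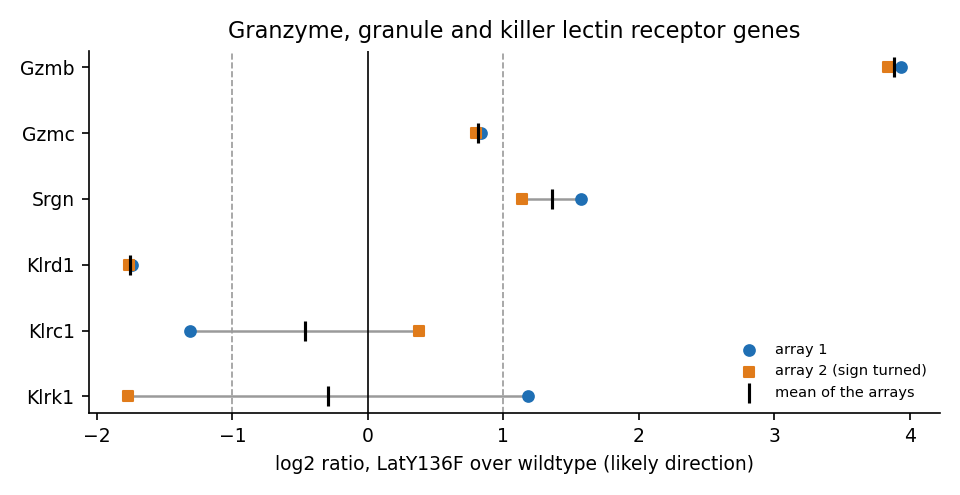
Log2 ratios of LatY136F over wildtype (x axis, likely direction) of the 6 measured genes on array 1 (circles) and array 2 with its sign turned (squares), with their mean (bars) and dashed lines at 2-fold. Gzmb, Gzmc, Srgn and Klrd1 gave nearby values on both arrays, while Klrc1 and Klrk1 lay on opposite sides of 0.

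Gzmb, encoding granzyme B, gave a deposited log10 ratio of 1.18 on array 1 and -1.15 on the dye-reversed array 2. After turning and centring these are log2 ratios of 3.94 and 3.84, or 15.3-fold and 14.3-fold higher in LatY136F cells. Both arrays thus lay far past 2-fold and within 1.07-fold of each other. The mean of 3.89 ± 0.05 (14.8-fold) ranked 9 from the top among the 4331 genes.

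Gzmc, encoding granzyme C, a protease of activated killer cells, gave deposited values of 0.247 and -0.233 and log2 ratios of 0.83 on array 1 and 0.80 on array 2. The arrays placed it 1.78-fold and 1.74-fold higher, so it stayed below the 2-fold threshold on both and passed 1.5-fold on both, as 7.83% of all genes did. Its mean of 0.81 ± 0.02 ranked 347 from the top. The ratio for granzyme C was therefore well below that for granzyme B on each array. Probe sequences were not used here, so shared signal from the related Gzmd, Gzme, Gzmf and Gzmg transcripts was not tested.

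Srgn, whose product holds granzymes inside the granule, was 2.98-fold higher on array 1 and 2.21-fold higher on array 2, from deposited log10 ratios of 0.471 and -0.337. Its log2 ratios of 1.58 and 1.14 gave a mean of 1.36 ± 0.22 (2.56-fold). Both arrays were above 2-fold, array 2 narrowly. Serglycin is also abundant in mast cells, neutrophils, macrophages and platelets.

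Klrd1, the CD94 chain, was 3.34-fold lower on array 1 and 3.40-fold lower on array 2, with deposited log10 ratios of -0.528 and 0.539. Its log2 ratios of -1.74 and -1.77 differed by less than those of most genes, and its mean of -1.75 ± 0.01 was the number 15 from the bottom of all 4331 genes. Of the 6 measured genes it had the smallest difference between the arrays.

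Klrc1 and Klrk1 had no settled direction. Klrc1, the inhibitory NKG2A chain, was at -1.31 on array 1 and 0.38 on array 2, a mean of -0.47 ± 0.84. Klrk1, encoding NKG2D, was at 1.18 on array 1 and -1.77 on array 2, a mean of -0.30 ± 1.48. The Klrk1 probe was thus at least 2-fold apart in opposite directions, as were 75 genes in all (1.73%). The differences between the arrays lay at the 93.8th percentile of all genes for Klrc1 and at the 98.9th for Klrk1, so neither mean can be read as a change. On array 1 alone Klrc1 would be called lower and Klrk1 higher, and on array 2 alone Klrk1 would be called lower. In the plot of both arrays, Gzmb, Gzmc, Srgn and Klrd1 fall along the diagonal and the other pair of members do not.

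**Figure D2:**
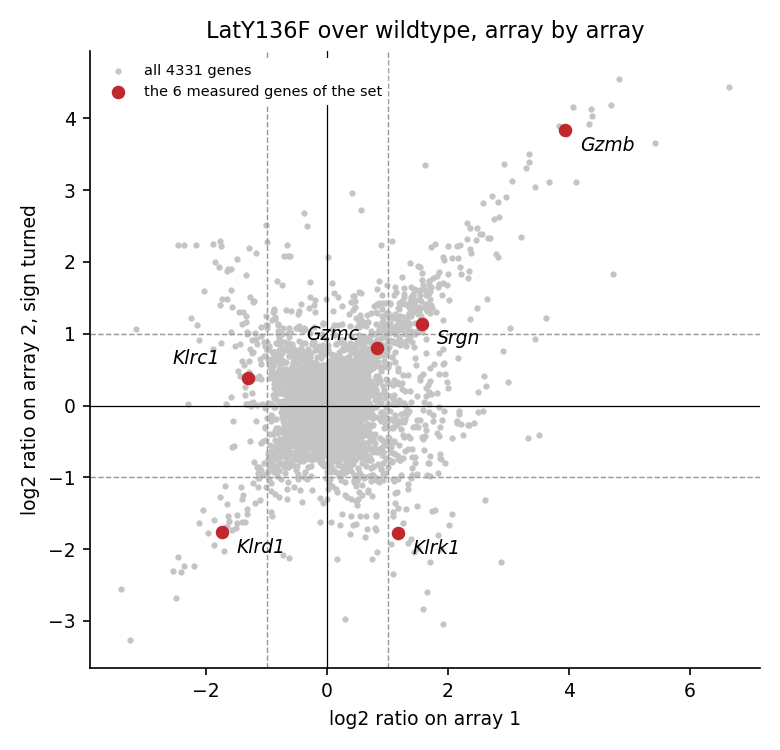
Log2 ratio on array 1 (x axis) against that on array 2 with its sign turned (y axis), LatY136F over wildtype, for 4331 genes (grey) and the 6 measured genes of the set (red), with dashed lines at 2-fold. Gzmb lies in the upper right at 3.94 and 3.84, Klrd1 in the lower left at -1.74 and -1.77, and Klrk1 in the lower right at 1.18 and -1.77.

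For each called member, the 3 genes nearest in both ratios were found, a likeness over 2 values only. Nearest to Gzmb were the phosphatase gene Ptpn13 (3.97 on array 1 and 3.78 on array 2), the annexin Anxa1 (3.83 and 3.89) and the protease gene Bace2 (4.07 and 4.15), at distances of 0.07, 0.11 and 0.34. Nearest to Srgn were the complement gene Hc, the thymic stromal lymphopoietin receptor Crlf2 and the phagosomal metal transporter Slc11a1, with means of 1.40, 1.38 and 1.40. Nearest to Klrd1 were 4933406I18Rik, the membrane protein gene Ms4a4b and the thromboxane receptor Tbxa2r, with means of -1.76, -1.74 and -1.71.

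The granzyme B and C genes lie in a cluster of serine protease genes on chromosome 14 that also holds mast cell protease genes and Ctsg, the cathepsin G gene of neutrophils. In RefSeq order the cluster counts 15 protein-coding genes, Cma1 first and Gzmb last, and 5 were measured. Ctsg was called higher with Gzmb, at 2.70 on array 1 and 2.33 on array 2 (5.72-fold). Gzmc lies beside Gzmb, yet its ratio was far smaller, and the mast cell proteases Mcpt4 (1.16 and 0.33) and Mcpt2 (-0.91 and 0.02) were not called. The cluster was looked up after the values were seen.

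The killer lectin receptor genes Klrd1, Klrk1 and Klrc1 lie in the natural killer gene complex on chromosome 6. RefSeq lists 48 protein-coding genes there, Klrb1a first and Klra2 last, and 20 were measured. Klrd1 was the only one of the 20 called in either direction, where 5.17% of all genes were called. The median of the 20 was -0.28 (array 1 gave -0.07 and array 2 gave -0.25), and 12 had the same sign on both arrays. The activating partner chain Klrc2 was at 0.67 and 0.41, above 0 on both arrays, and its relative Klrc3 at -0.80 and 0.05. The 11 measured Ly49 receptor genes (Klra), of which Klra16 and Klra22 are not among the 20, had means between -0.54 (Klra10) and 0.24 (Klra7). None of the 11 was called. Probe sequences were not used here, so shared signal among related genes within the Ly49 family or within the NKG2 family was not tested.

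**Figure D3:**
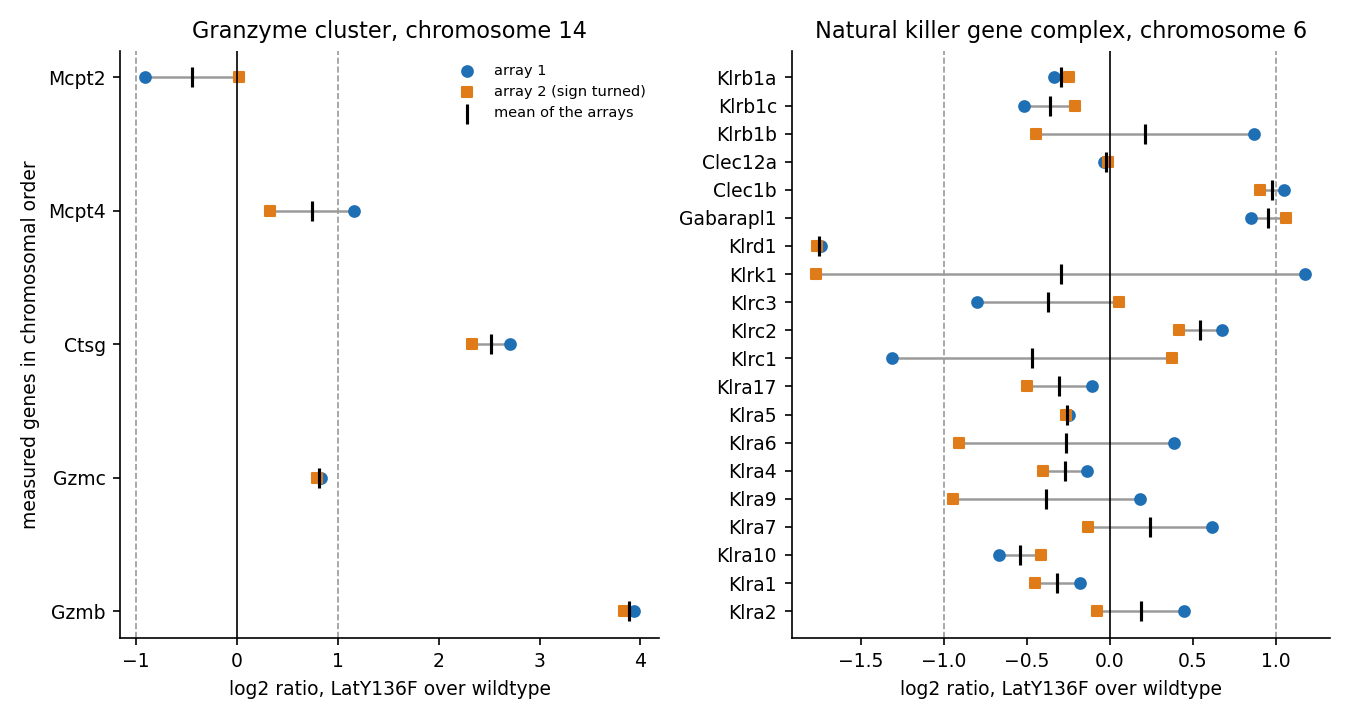
Log2 ratios of LatY136F over wildtype on array 1 (circles) and array 2 with its sign turned (squares), with means (bars) and dashed lines at 2-fold, for the measured genes of the granzyme cluster (left) and the natural killer gene complex (right) in chromosomal order from top to bottom. Gzmb and Ctsg are past 2-fold on both arrays on the left, and Klrd1 alone on the right.

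Outside that complex, the inhibitory lectin receptor Klrg1, a marker of differentiated effector lymphocytes, was at 1.45 on array 1 and 0.99 on array 2 (mean 1.22 ± 0.23), short of 2-fold on array 2 by a small margin. Of 18 listed killer and related lectin receptor genes beyond the set, Klrg1 and those of the complex included, none was called. Over all genes 5.17% were called. The median of the 18 was -0.26 (array 1 gave 0.07 and array 2 gave -0.25). Clec1b, the podoplanin receptor of platelets, which lies in the complex, was at 0.98 ± 0.07. Among 7 measured ligands none was called, against the same 5.17% of all genes, and the median was 0.22. Cdh1, the E-cadherin gene and a ligand of Klrg1, stood at 1.05 ± 0.18, and H2-T23, which encodes Qa-1, at 0.11 and 0.33.

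Several genes encoding proteins of granules and lysosomes, among them proteins that process granzymes, were higher. Of 14 measured, 6 were called higher and none lower, where 4.20% and 0.970% of all genes were, and the median was 0.63 (array 1 gave 1.12 and array 2 gave 0.69). Ctsc, the cathepsin that activates granzymes by removing a dipeptide, was at 1.41 on array 1 and 1.56 on array 2 (2.80-fold). Cst7, encoding cystatin F, an inhibitor of cathepsins in the granule, was 3.12-fold higher, at 1.64 ± 0.05. The lysosomal tetraspanin Cd63 was 2.74-fold higher and the cysteine protease Ctsl 2.57-fold. Lamp2, a lysosomal membrane protein, and Mpeg1, the perforin-like protein of macrophages, completed the called genes at 1.15 and 1.13. Ctsw, a cathepsin of killer cells and cytotoxic T cells, was at 0.23 and -0.02. These genes, apart from Ctsw, are also expressed by macrophages, and 8 of 17 monocyte and macrophage markers were called higher beside them. The part of such cells in these ratios was not tested.

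The machinery that moves and releases granules gave no called gene among 14 measured, where 5.17% of all genes were called. Its median was 0.10 (array 1 gave 0.24 and array 2 gave -0.02). The highest mean was 0.68 ± 0.01, for the recycling endosome GTPase Rab11a. Of 3 measured genes of glycosaminoglycan synthesis, which builds the sugar chains of serglycin, Chsy1, a chondroitin synthase, was 2.74-fold higher (1.45 ± 0.06), while the sulfate donor synthases Papss1 and Papss2 stood at -0.22 and -0.70. Among 8 serpins 2 were called higher, where 4.20% of all genes were, and the median was 0.19 (array 1 gave 0.55 and array 2 gave -0.02). Serpinb6a, a broad intracellular protease inhibitor, was 3.16-fold higher and Serpinb2, an inhibitor of plasminogen activators, 2.40-fold. Serpinb9, the inhibitor of granzyme B, was at 1.22 on array 1 and -0.23 on array 2 and had no settled direction.

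Of 19 adaptor and proximal signalling genes of the killer receptors, 1 was called higher and 1 lower (5.17% of all genes were called in either direction), with a median of 0.06 (array 1 gave 0.07 and array 2 gave 0.15). Fcer1g, an adaptor shared by Fc receptors and killer receptors, was 2.83-fold higher, and Tyrobp, the DAP12 adaptor of NKG2D, was at 0.92 and 1.02 (mean 0.97 ± 0.05), while Hcst, the DAP10 adaptor, stood at 0.31 and 0.40. Txk, a Tec family kinase of T cells, was called lower, at -2.59 ± 0.09. The phosphatase Inpp5d, an inhibitor of lectin receptor signalling, was at 0.88 ± 0.20. Lat itself was at -0.16 on array 1 and -0.17 on array 2, and a transcript ratio does not check a substitution of 1 residue. Fcer1g and Tyrobp are also myeloid adaptors.

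Transcription factors with known roles in cytotoxic gene expression included 5 called higher and none lower among 32 measured, against 4.20% of all genes called higher, with a median of 0.15. They were Gata3, the Th2 factor, at 2.93 ± 0.02, the Notch mediator Rbpj at 2.05 ± 0.28, Batf at 2.01 ± 0.23, Id2 at 1.98 ± 0.05 and Irf4 at 1.22. Prdm1, the Blimp-1 gene of effector cells, was at 0.91 and 1.53. Tbx21, encoding T-bet, was at 1.07 on array 1 and -0.77 on array 2, and Runx3, the factor of the cytotoxic lineage, at -0.23 and 0.07. Neither had a settled direction. Means lay above 0 for 21 of the 32 and below 0 for 11. Hopx (-1.13 and -0.85) and Id3 (-0.72 and -0.53) were below 0 on both arrays.

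Of 25 cytokine signalling genes upstream of granzyme and perforin expression, 5 were called higher and none lower, against 4.20% of all genes called higher, with a median of 0.33 (array 1 gave 0.20 and array 2 gave 0.19). Il12rb1, a subunit of the interleukin-12 and interleukin-23 receptors, was 7.12-fold higher (2.83 on each array) and Cish, a STAT5-induced feedback gene, 6.42-fold. Socs3, a STAT3-induced inhibitor, was at 1.54 ± 0.01 and the receptor kinase Jak3 at 1.17 ± 0.01. Jak2 was called as well, at 1.16. The interleukin-2 receptor chains Il2rb (0.25 and 0.58) and Il2ra (0.20 and -0.77) were not called. Il12rb2, at -0.65 and 0.08, was not called and had no settled direction. Means lay above 0 for 17 of the 25 and below 0 for 8.

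Genes of the other route of killing, by death ligands, were listed together with granzyme substrates. None of the 23 measured was called, where 5.17% of all genes were called. These were ligands, receptors and granzyme substrates, and their median was 0.04 (array 1 gave 0.09 and array 2 gave -0.15). Fasl stood at 0.35 and 0.21 and the ligand gene Tnfsf10, encoding TRAIL, at 0.89 ± 0.09. The receptor gene Fas was at -0.74 ± 0.10 and the lymphotoxin gene Ltb at -0.73 ± 0.04. The granzyme substrate Tuba1b stood at 0.73 ± 0.12.

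**Figure D4:**
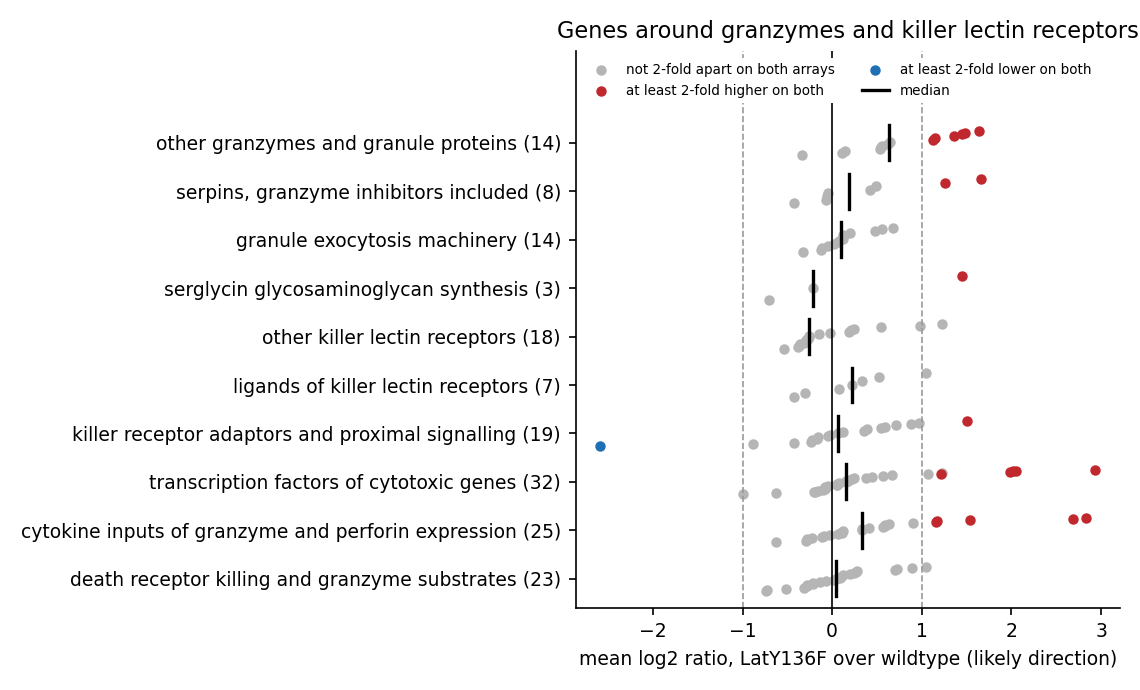
Mean log2 ratio of LatY136F over wildtype (x axis, likely direction) of each measured gene in 10 lists around granzymes and killer lectin receptors, the 6 genes of the set left out, with list medians as bars and the number measured in brackets. Red points mark genes called higher and blue points genes called lower, and 6 of 14 genes of granule and lysosomal proteins were called higher.

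Markers of the sorted cells and of other cell types were read in the same way, against the 4.20% of all genes called higher and 0.970% called lower. None of 12 CD4 T cell markers was called and their median was -0.04, with Cd4 at -0.07 and -0.26 and Cd3e at -0.14 and 0.12. Members of that list lay on both sides: the inhibitory receptor Cd5 (0.70 and 0.92) and the costimulatory receptor Icos (0.84 and 0.70) passed 1.5-fold higher on each array, and Cd247, the zeta chain of the T cell receptor complex, was at -0.42 and -1.34. None of 15 natural killer cell markers outside the set was called, and their median was 0.21 (array 1 gave 0.25 and array 2 gave -0.20). Here too the members were mixed. The Fc receptor Fcgr3 (0.71 and 0.97) and Tyrobp (0.92 and 1.02), both also myeloid genes, passed the same mark, the integrin Itga2 was at 2.01 and 0.24, Klrb1c (NK1.1) at -0.52 and -0.21 and Ncr1 at -0.16 and 0.58. Of 2 CD8 T cell markers Cd8b1 was called lower, at -2.21 and -2.24, beside Klrd1. The other marker, Cd8a, was at -0.78 and -0.47 and was not called. Of 3 gamma delta and innate-like T cell markers 1 was called higher, the transcription factor Sox13, at 1.11 and 1.54 (2.50-fold). Zbtb16 (-0.11 on each array) and Blk (-0.06 and -1.36) were not called, and the median of that list was -0.11.

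Beside Gzmb and Srgn, neutrophil markers were called higher for 5 of 10, with the integrin Itgb2l at 4.13 ± 0.20, the decoy receptor Il1r2 at 3.62 ± 0.50, Lcn2 at 3.14 ± 0.22 and Ctsg. Monocyte and macrophage markers were called higher for 8 of 17. The furthest were the mannose receptor Mrc1 at 2.73 ± 0.11, C1qc at 2.48 ± 0.08, the lysozyme Lyz1 at 2.27 ± 0.09 and the iron exporter Slc40a1 at 1.69 ± 0.03. This list was mixed too, with 13 means above 0 and 4 below. Ms4a7 stood at -0.46 and -0.77 and Msr1 at -0.06 and -0.84. Platelet markers were called higher for 2 of 6 (Pf4 at 1.55 ± 0.36 and Itga2b at 1.29 and 1.11). The platelet thrombin receptor gene F2rl2, at 1.08 ± 0.31, was not called. Among the other platelet markers, Itgb3 was at -0.21 and -0.57 and F2r at 0.03 and 0.26. Erythroid markers were called higher for 2 of 5 (Epor at 2.42 ± 0.06 and Hba-a1 at 1.07 ± 0.06). Mast cells and basophils also make granzyme B and serglycin. Of 10 of their markers, eosinophil markers included, none was called. The median was 0.62 (array 1 gave 0.46 and array 2 gave 0.38), with 8 means above 0 and 2 below. Ms4a2 was at 0.96 and 1.43, Ccr3 at 0.90 and 1.09 and Csf2rb at 0.59 and 0.95. Kit stood at 0.33 and 0.002, Prg3 at -0.26 and 0.02, Mcpt2 at -0.91 and 0.02 and Csf2rb2 at -0.43 and 1.42.

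B cell markers were called lower for 9 of 18, with Cd79b at -2.29 ± 0.18, Ighm at -1.91 ± 0.03, Cr2 at -1.76 ± 0.29 and Cd72 at -1.73 ± 0.14. Plasmacytoid dendritic cells are another source of granzyme B, and 2 of 9 of their markers, Spib and Ly6d, were called lower and none higher. Spib and Ly6d are expressed by B cells as well, and Spib stands on the B cell list. Irf8 was at -0.98 ± 0.03. This list was mixed, with 2 means above 0 and 7 below. Bst2 stood at -0.01 and 0.52 and Ccr9 at 0.80 and -1.54. The table holds no signal, so summed marker levels and markers at 0 cannot be given, and the part of these cells in the ratios of Gzmb, Srgn and Klrd1 was not tested.

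**Figure D5:**
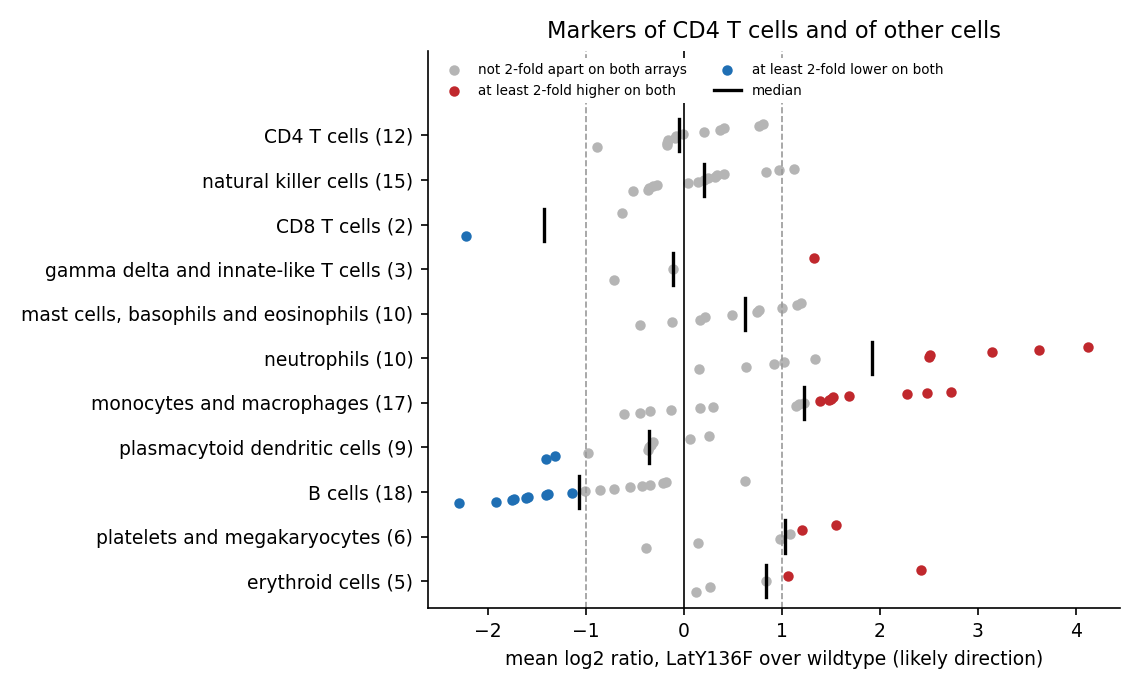
Mean log2 ratio of LatY136F over wildtype (x axis, likely direction) of the measured marker genes of CD4 T cells and 10 other cell groupings, the 6 genes of the set left out, with list medians as bars and the number measured in brackets. Neutrophil and macrophage medians lie at 1.92 and 1.23, the B cell median at -1.07 and the CD4 T cell median at -0.04.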

How the data were processed

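Two-channel arrays of total RNA gave 1 deposited log10 ratio per probe for 8014 probes on 2 arrays. No source used here names the base, and log10 was inferred because the highest value is exactly 2, a 100-fold limit. What the authors did to background, dyes and filters is not stated in the labels, and the deposited values carry no signal or depth, so the number of arrays limits the precision. LatY136F RNA was in channel 2 of array 1 and in channel 1 of array 2, per the labels, so array 2 was multiplied by -1.

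Values were multiplied by 3.32 to give log2, centred per array on the median and averaged over probes of a gene. Probes with 1 platform symbol numbered 4654, with several 73 and with none 3287, and of the 4654 probes 4640 matched the RefSeq gene table (GRCm38.p6).

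Members, gene lists and tests were chosen with earlier results of these data known. Besides the set and Lat, named genes are up to 4 per list furthest from 0 among those that both arrays put 1.5-fold or more to 1 side, or 2 where there was none, and the 3 nearest to each called member. The remaining genes (Lamp2, Mpeg1, Ctsw, Papss1, Papss2, Serpinb9, Hcst, Irf4, Prdm1, Tbx21, Runx3, Jak2, Il2rb, Il2ra, Fasl, H2-T23, Cd4, Cd3e, Klrb1c, Ncr1, Itga2 and Cd247, the cluster genes and the families of the closing section) and the promoter motifs were chosen after values were seen. Ms4a7, Msr1, Zbtb16, Blk, Klra16 and Klra22 were likewise named after values were seen. So were Hopx, Id3, Itgb3, F2r, Kit, Prg3, Csf2rb2, Bst2, Ccr9, Cd8a and Il12rb2. The serpin, transcription factor and marker lists hold genes with other roles too, and several genes stand on more than 1 list. Alternatives covered centring, scaling, probe choice, thresholds, each array alone, the sign, the log base, zeros and probes with several symbols. Python 3.11.15, numpy 2.4.6, pandas 2.3.3 and matplotlib 3.10.9 were used.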

Additional observations from a re-analysis of the deposited data

How the results depend on the processing

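Of the 6 measured genes, 2 were called higher and 1 lower. These counts were the same without centring, with scaled arrays, with either probe choice, with a threshold on the mean, without probes at exactly 0 and with probes of several symbols included. A 1.5-fold threshold added Gzmc, for 3 higher, and a 3-fold threshold left 1 higher, Gzmb, and kept Klrd1. Single arrays gave 2 lower in each case and 2 to 3 higher, since Klrc1 passes on array 1 only and Klrk1 passes on each in opposite directions. Turning the sign gives 1 higher and 2 lower, with Gzmb at -3.89, Srgn at -1.36, Klrd1 at 1.75 and a median of -0.26. With array 2 as deposited, 1 member, Klrk1, would be higher and 0 lower, and Klrd1 would stand at 0.013. Read as log2, 1 would be higher, Gzmb, and 0 lower. The median of the members, 0.26, was 0.59 to 1.01 on single arrays, where Klrc1 and Klrk1 have opposite signs.

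Over all genes the counts of 182 higher and 42 lower became 339 and 127 at 1.5-fold, 69 and 19 at 3-fold, and 341 to 408 and 145 to 151 on single arrays. They were 42 and 182 with the sign turned, and 13 and 0 when read as log2. With array 2 as deposited 34 were higher and 41 lower. Turning the sign multiplies each ratio by -1, so all 37 called genes among the 55 named from the lists change side by construction. With array 2 as deposited 15 of them changed sign and 0 were called. No paired analysis was possible because the design holds 1 dye-reversal pair with no second pair to block on. No significance test was run, and signal over background could not be judged from ratios alone.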

Other observations

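Protease and membrane families related to the granule were counted whole, by symbol, after values were seen. Of 18 cathepsin genes 5 were called higher in LatY136F cells and none lower, where 4.20% of all genes were called higher and 0.970% lower, with a median log2 ratio of 0.59 (array 1 gave 0.76 and array 2 gave 0.64). Besides Ctsg, Ctsc and Ctsl these were Ctse, an aspartic protease of the endosome, at 1.54 on array 1 and 1.35 on array 2, and Ctsa, the lysosomal protective protein, at 1.02 and 1.23. Ctss, the cathepsin that processes the invariant chain in antigen-presenting cells, was at -0.24 and -0.02. Both measured cystatins were higher, Cst7 with the secreted inhibitor Cst3 (1.14 and 1.24).

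Of 12 tetraspanin genes 3 were called higher and none lower, also against 4.20% and 0.970% of all genes, with a median of 0.29 (array 1 gave 0.13 and array 2 gave 0.32). These were Cd63, Cd82 (1.72 and 1.40) and Tspan31 (1.38 and 1.46). Cd37, a tetraspanin of B cells, was at -0.56 and -0.30. Of 23 serpin genes 2 were called higher, where 4.20% of all genes were, and the median was -0.05 (array 1 gave 0.23 and array 2 gave -0.12).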
